A study of Homo sapiens with 48 samples.

Results

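The genes described here encode the machinery of mitosis: the cyclin B and CDK1 switch, the mitotic kinases, the spindle checkpoint, the kinetochore, the spindle motors, the cytokinesis apparatus and the condensin complex. They are a list of 60 gene symbols chosen by the known role of their products, with earlier results of these data known. All probe sets annotated to 1 of these symbols alone were taken (1 more, annotated to CENPA and another gene, was not used), which gave 58 measured genes of 11963 in all, read by 95 probe sets. For NUF2 and ANLN no change is given here, and only their promoter windows were searched. Each gene is given by its brightest probe set, and the other probe sets of a gene are described separately.

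RNA was measured on Affymetrix arrays in 24 samples of K562 cells treated with 1 micromolar imatinib for 24 hours and in 24 samples of mock-treated K562 cells. K562 cells are a single long-established line grown out of a human chronic myeloid leukaemia. They depend on the fusion kinase BCR-ABL1, the target that imatinib inhibits. The keywords of the imatinib samples also say mock treated, against their titles and descriptions, which were used to form the groups. The samples carry 8 letters, A to H, whose meaning the labels do not give, and each lettered set holds 3 imatinib and 3 mock samples. Separate cultures are not stated for the replicates, so p-values rest on a spread between samples that may be technical only. The labels give column-kit RNA for imatinib samples and Trizol followed by the same kit for mock samples, so the treatment and the RNA isolation cannot be told apart in any set. All values are log2 levels, a change is the imatinib level minus the mock level, and levels were compared only within a set. These are bulk RNA measurements, in which fewer cells in mitosis and less RNA per mitotic cell cannot be told apart.

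Sample means over all probe sets ranged between 5.89 and 7.62, but within any 1 set by no more than 0.053. The combined comparison used limma with the set as a factor (24 imatinib and 24 mock samples), with p-values adjusted by the Benjamini-Hochberg method over 22215 probe sets and called at 0.05. The median change of all 11963 genes was 0.05. Of 14 erythroid and BCR-ABL1 genes that mark K562 cells, 10 were measured. All 10 had a mean level above the median of all probe sets, as had 6982 of all 11963 genes. All 10 rose with imatinib, against 41.6% of all genes. The summed linear level of these 10 genes was 33200 to 72400 in the imatinib groups and 12100 to 34400 in the mock groups. The sums of the T cell, B cell, myeloid and fibroblast or epithelial lists were between 195 and 2430 in imatinib groups and between 192 and 2430 in mock groups. In these lists 4 of 6, 3 of 5, 0 of 6 and 5 of 6 genes lay above the median of all probe sets. Changes of the T cell genes lay between -1.73 and 0.22. The part of the erythroid rise in the changes below was not tested.

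Entry into mitosis is driven by cyclin B bound to CDK1, which the CDC25 phosphatases switch on and which PLK1 and the Aurora kinases assist. Kinetochores then attach chromosomes to spindle microtubules, and the spindle checkpoint holds the anaphase-promoting complex inactive until every chromosome is attached. Many of these genes are transcribed mainly in late S, G2 and M phase of dividing cells, under the MuvB, B-MYB and FOXM1 factors.

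Imatinib samples held less RNA of most of these genes. Of the 58 measured genes, 54 fell, 3 rose (CENPM, ZWINT and NUSAP1) and 1, SMC2, was not called. Among all 11963 genes, 27.1% fell and 41.6% rose in the same comparison. The median change of the 58 genes was -0.46, a level reached or passed by 1199 of all genes (10%). The falls were mostly moderate: 7 genes fell by at least 2-fold (CDC20, SPC25, KIF14, PLK1, CCNB1, KIF11 and MAD2L1), against 2.44% of all genes. The change was below 0 in all 8 sets for 48 of the 58 genes, and 20.6% of all genes had that pattern. In 25 genes every imatinib sample lay below every mock sample of its set in all 8 sets, against 9.91% of all genes. With each set fitted alone, 21 genes were lower in every set, against 7.76% of all genes.

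**Figure D1:**
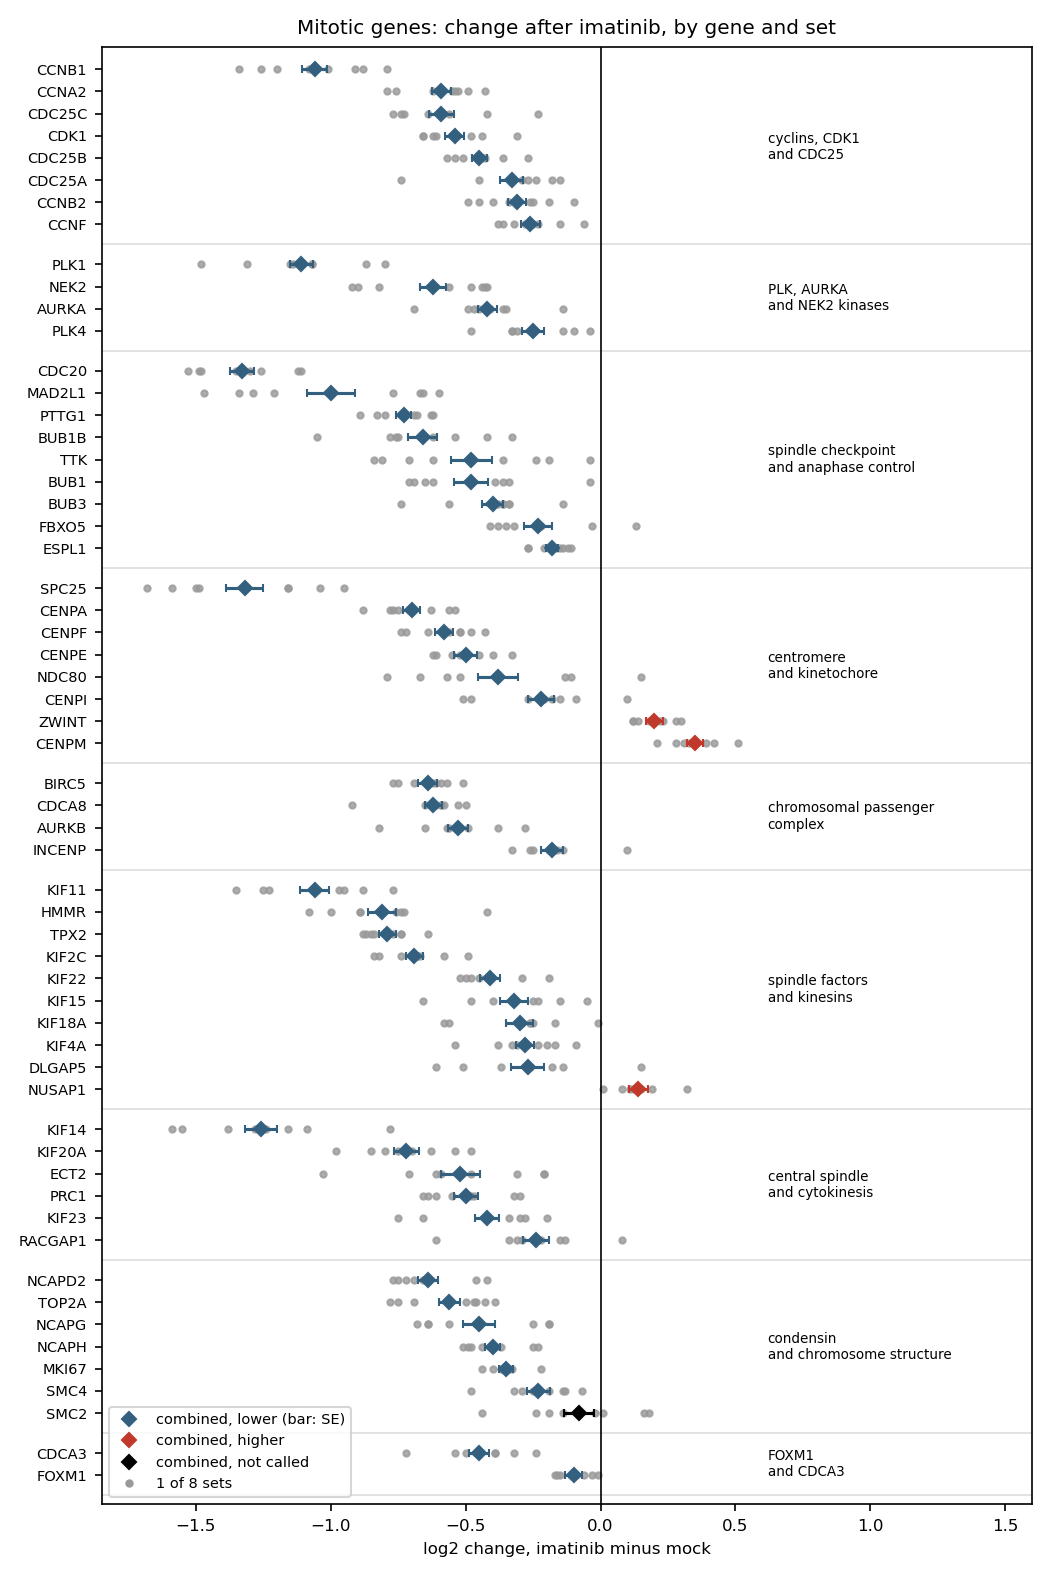
Log2 change (imatinib minus mock) of the 58 measured mitotic genes, ordered within each role by the combined change. Diamonds are the combined limma estimate with its SE (n = 24 samples per treatment), and small points are the 8 sets (difference of means of 3 and 3 samples). Nearly all diamonds lie left of 0, and the 3 genes to the right are CENPM, ZWINT and NUSAP1.

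The plot of changes by gene shows each role list with a negative median and a spread between its genes. In the kinetochore list, for example, SPC25 fell by more than 2-fold and CENPM rose. The curve of the mitotic genes in the plot of cumulative shares lies left of the curve of all genes over most of its range.

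**Figure D2:**
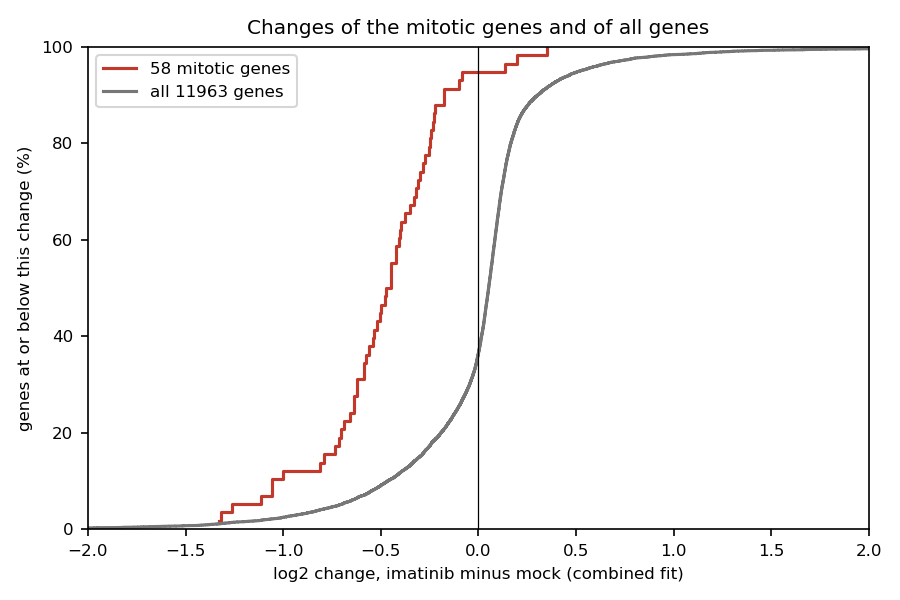
Cumulative share of genes (%, vertical axis) at or below a given log2 change (imatinib minus mock, combined comparison), for the 58 mitotic genes and for all 11963 genes. The mitotic genes have a median of -0.46 and all genes one of 0.05, and the mitotic genes range between -1.33 (CDC20) and 0.35 (CENPM).

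RNA of the genes for the switch into mitosis was lower: all 8 cyclin, CDK1 and CDC25 genes fell, against 27.1% of all genes. Their median change was -0.50, and the activity of the switch was not measured. CCNB1, cyclin B1, the main activating partner of CDK1, fell most. In set E its levels were 7.90, 7.37 and 7.46 in the imatinib samples, against 9.07, 8.79 and 8.89 in the mock samples. In set F they were 8.92, 8.71 and 8.99 in the imatinib samples, against 9.84, 9.77 and 9.38 in the mock samples. The imatinib and mock samples of CCNB1 did not overlap in any of the 8 sets. Its changes in sets A to H were -0.88, -1.08, -1.26, -1.20, -1.34, -0.79, -1.01 and -0.91, and the combined change was -1.06 ± 0.045 (SE, n = 24 per treatment, limma adjusted p = 6.14e-26). CCNB2, the second B-type cyclin, fell less, with a combined change of -0.31 ± 0.033. CCNA2, cyclin A2, which acts in S phase and early mitosis, had changes of -0.55, -0.62, -0.79, -0.49, -0.76, -0.53, -0.43 and -0.54 in sets A to H. CDK1, the catalytic kinase itself, fell by 0.54 on the log2 scale (adjusted p = 1.23e-18). CCNF, an F-box protein of the cyclin family that targets proteins for destruction, had the smallest change of the list at -0.26 ± 0.034.

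The 3 CDC25 phosphatases, which remove the inhibitory phosphates of cyclin-dependent kinases, all fell. CDC25C and CDC25B had combined changes of -0.59 ± 0.045 and -0.45 ± 0.028, and in both genes the groups were apart in all 8 sets. CDC25A, which also acts at the G1 to S boundary, had changes of -0.29, -0.18, -0.74, -0.45, -0.33, -0.24, -0.27 and -0.15 in sets A to H and a combined change of -0.33 ± 0.041. In set C, with the largest change, its levels were 8.02, 7.88 and 7.68 in the imatinib samples, against 8.75, 8.59 and 8.46 in the mock samples. In set H they were 8.68, 8.76 and 8.70 in the imatinib samples, against 8.83, 8.84 and 8.91 in the mock samples.

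All 4 genes for the kinases PLK1, PLK4, AURKA and NEK2 fell, against 27.1% of all genes, with a median change of -0.52. PLK1, the polo-like kinase that acts in CDK1 activation, centrosome maturation and cytokinesis, had the largest change of the 4. Its levels in set C were 7.55, 7.30 and 7.42 in the imatinib samples, against 8.97, 8.91 and 8.82 in the mock samples. Set H, with the smallest change, had 8.03, 7.93 and 7.87 in the imatinib samples, against 8.77, 8.69 and 8.75 in the mock samples. In no set did an imatinib sample reach the lowest mock sample of PLK1. Across sets A to H the changes of PLK1 were -0.87, -1.07, -1.48, -1.15, -1.07, -1.31, -1.14 and -0.80, and the combined change was -1.11 ± 0.043 (adjusted p = 1.27e-27), 2.16-fold lower with imatinib. NEK2, which helps separate the centrosomes, had changes of -0.44, -0.56, -0.90, -0.92, -0.82, -0.48, -0.43 and -0.42 and a combined change of -0.62 ± 0.048. AURKA, the centrosomal Aurora kinase, fell by 0.42 on the log2 scale. PLK4, which starts centriole duplication, had the smallest change at -0.25 ± 0.041, with set changes between -0.48 and -0.04.

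The change of PLK1, CDC25A and NEK2 differed between sets (limma F test of the set-by-treatment terms, adjusted p = 0.00472, 0.0434 and 0.0446). These are 3 of 58 genes, and 7.03% of all genes passed the same test. The sign was the same in all 8 sets for each of the 3, so the sets differed in the size of a fall. Without set C the adjusted p became 0.105 for PLK1, 0.627 for CDC25A and 0.13 for NEK2, and none of the 58 genes passed. Without set E, 7 passed. The shares of all genes in these reduced fits are not given, and the 7.03% belongs to the fit of all sets.

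All 9 genes of the spindle checkpoint and of anaphase control fell, against 27.1% of all genes, with a median change of -0.48. CDC20, the activator of the anaphase-promoting complex that the checkpoint holds back, had the largest change of all 58 genes. Its levels in set C were 7.93, 7.95 and 7.47 in the imatinib samples, against 9.16, 9.42 and 9.35 in the mock samples. In set A they were 7.53, 7.69 and 7.56 in the imatinib samples, against 8.71, 8.79 and 8.63 in the mock samples. The highest imatinib sample of CDC20 lay below the lowest mock sample in each set, also in set E, where imatinib samples spread most, with 7.54, 6.88 and 7.02 in the imatinib samples, against 8.63, 8.63 and 8.65 in the mock samples. Changes of CDC20 in sets A to H were -1.11, -1.30, -1.53, -1.48, -1.49, -1.35, -1.26 and -1.12, and the combined change was -1.33 ± 0.044 (adjusted p = 2.41e-30), 2.51-fold lower with imatinib.

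MAD2L1, the MAD2 protein that binds CDC20 at unattached kinetochores, had changes of -0.60, -1.21, -1.29, -1.34, -1.47, -0.66, -0.77 and -0.67 and a combined change of -1.0 ± 0.088. A difference between sets was not called for it (limma F test of the set-by-treatment terms, adjusted p = 0.138). In set F the groups of MAD2L1 overlapped, and it was not called there (limma on that set alone, adjusted p = 0.134). In set E its levels were 6.55, 5.78 and 6.10 in the imatinib samples, against 7.80, 7.55 and 7.49 in the mock samples. BUB1B, the BUBR1 component of the checkpoint complex, fell by 0.66 on the log2 scale, and the kinases TTK and BUB1 each by 0.48. TTK and BUB1 had a change of only -0.04 in set F, where neither was called. BUB3, the partner of BUB1 and BUBR1, fell by 0.40. PTTG1, securin, the inhibitor that is destroyed at anaphase, fell by 0.73 with little spread between sets, at -0.83, -0.63, -0.89, -0.68, -0.80, -0.62, -0.69 and -0.74. Its protease ESPL1, separase, had the smallest change of the list, -0.18 ± 0.023, with sets between -0.27 and -0.11. FBXO5, the EMI1 inhibitor of the anaphase-promoting complex, had a combined change of -0.23 ± 0.052 and a change of 0.13 in set F (adjusted p = 0.636 in that set alone).

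In the centromere and kinetochore list, 6 of 8 measured genes fell (75%, against 27.1% of all genes) and 2 rose (25%, against 41.6%). The median change was -0.44. SPC25, a subunit of the microtubule-binding NDC80 complex, had changes of -0.95, -1.59, -1.49, -1.68, -1.50, -1.04, -1.16 and -1.16 in sets A to H. In set D, the largest of them, its levels were 5.80, 6.16 and 5.94 in the imatinib samples, against 7.79, 7.35 and 7.80 in the mock samples. In set A they were 6.11, 6.04 and 5.97 in the imatinib samples, against 6.87, 7.21 and 6.87 in the mock samples. The groups were apart in all 8 sets, and the combined change was -1.32 ± 0.068 (adjusted p = 1.42e-22). NDC80, the subunit that names the same complex, fell less, with a combined change of -0.38 ± 0.074. Its set changes lay between -0.79 in set D and 0.15 in set F. The third measured subunit, SPC24, which is outside the 60 symbols and was looked up after the values of SPC25 were seen, had a change of 0.10 (adjusted p = 0.0105).

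CENPA, the histone H3 variant that marks centromeres, fell by 0.70 on the log2 scale and was lower without overlap in all 8 sets. CENPE, a kinetochore motor, and CENPF, a large outer kinetochore protein, fell by 0.50 and 0.58. CENPI, of the inner kinetochore, was dim (mean mock level 5.91) and had a combined change of -0.22 ± 0.049, with 0.10 in set E and -0.51 in set C.

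CENPM, another inner kinetochore protein, rose. Its levels in set A were 7.34, 7.24 and 7.49 in the imatinib samples, against 6.86, 6.93 and 6.75 in the mock samples. In set D, where the change was smallest, they were 7.71, 7.98 and 7.78 in the imatinib samples, against 7.65, 7.61 and 7.58 in the mock samples. All imatinib samples of CENPM lay above all mock samples in each of the 8 sets. The changes were 0.51, 0.39, 0.33, 0.21, 0.28, 0.42, 0.35 and 0.31 and the combined change was 0.35 ± 0.029 (adjusted p = 8.02e-15). ZWINT, which links the outer kinetochore to the checkpoint machinery, rose by a combined 0.20 ± 0.03, with changes of 0.14, 0.22, 0.30, 0.12, 0.12, 0.28, 0.18 and 0.23, and the groups did not overlap in 6 of 8 sets. In set C the levels of ZWINT were 10.69, 10.64 and 10.60 in the imatinib samples, against 10.28, 10.38 and 10.37 in the mock samples. In set E they were 9.88, 9.31 and 9.46 in the imatinib samples, against 9.35, 9.56 and 9.38 in the mock samples, and there the groups overlapped.

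**Figure D3:**
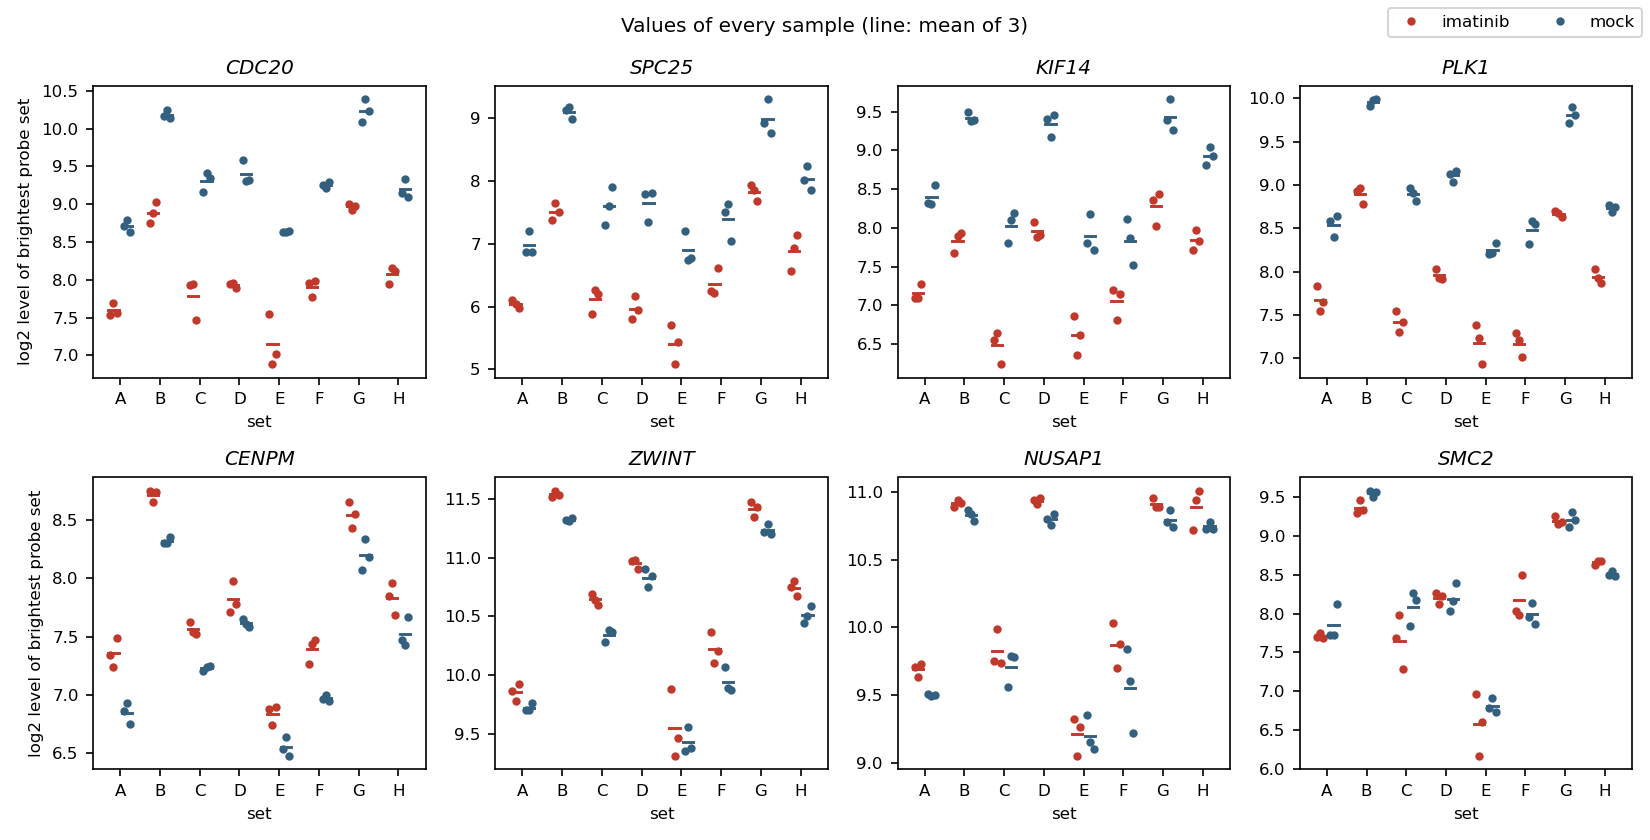
Log2 level of the brightest probe set in every sample for 8 genes, by set (horizontal axis), with imatinib samples left of the mock samples of their set and a line at the mean of 3 samples. CDC20, SPC25, KIF14 and PLK1 were lower in all imatinib samples of every set, CENPM was higher in all of them, and SMC2 changed sign between sets. The vertical axes do not start at 0 and differ between panels.

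All 4 genes of the chromosomal passenger complex, which corrects faulty attachments and later guides cytokinesis, fell, against 27.1% of all genes. Their median change was -0.58. BIRC5, survivin, had levels in set D of 8.60, 8.42 and 8.40 in the imatinib samples, against 9.40, 9.13 and 9.20 in the mock samples. In set F, with the smallest change, they were 8.25, 8.47 and 8.57 in the imatinib samples, against 8.94, 9.16 and 8.71 in the mock samples. No samples overlapped in either set, and the changes of BIRC5 over sets A to H were -0.62, -0.61, -0.69, -0.77, -0.75, -0.51, -0.57 and -0.59 (combined -0.64 ± 0.035, adjusted p = 9.43e-22). CDCA8, borealin, had changes of -0.61, -0.50, -0.92, -0.53, -0.65, -0.58, -0.59 and -0.59, with a combined change of -0.62 ± 0.031. AURKB, the catalytic kinase, fell by 0.53. INCENP, the scaffold that binds all of them, changed least, with a combined change of -0.18 ± 0.04 and set changes of -0.25, -0.18, -0.26, -0.14, 0.10, -0.33, -0.19 and -0.16. BIRC5 and INCENP are the ends of this list by the same 8 sets, so their order within sets is no separate result.

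Among 10 spindle factors and kinesins, 9 fell (90%, against 27.1% of all genes) and NUSAP1 rose (10%, against 41.6%). The median change was -0.36. KIF11, the tetrameric motor that pushes the spindle poles apart, fell most. Its levels in set D were 6.61, 6.76 and 6.81 in the imatinib samples, against 8.29, 7.82 and 8.11 in the mock samples. In set F they were 6.40, 5.88 and 6.34 in the imatinib samples, against 7.02, 7.11 and 6.81 in the mock samples. KIF11 was lower without overlap in all 8 sets, with changes of -0.88, -1.25, -1.23, -1.35, -1.05, -0.77, -0.97 and -0.95 and a combined change of -1.06 ± 0.055 (adjusted p = 3.1e-22). HMMR, a hyaluronan receptor that also binds spindle microtubules, had changes of -0.76, -1.0, -1.08, -0.89, -0.89, -0.42, -0.73 and -0.74, the smallest of them in set F. TPX2, the activator of AURKA on the spindle, fell by 0.79, and its 8 sets lay between -0.88 and -0.64. KIF2C, a kinesin that depolymerises microtubules at centromeres, fell by 0.69. The chromosome-arm kinesins KIF22 and KIF4A fell by 0.41 and 0.28. KIF15, which can back up KIF11, and KIF18A, which damps chromosome movements, had combined changes of -0.32 ± 0.051 and -0.30 ± 0.051, with changes of -0.05 and -0.01 in set F. DLGAP5, which stabilises kinetochore fibres, had a combined change of -0.27 ± 0.061 with 0.15 in set F.

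NUSAP1, a microtubule-binding protein of the spindle, rose by a combined 0.14 ± 0.035 (adjusted p = 0.000541), the smallest of the 3 rises. Its levels in set F were 10.03, 9.70 and 9.88 in the imatinib samples, against 9.84, 9.60 and 9.22 in the mock samples. In set E they were 9.32, 9.05 and 9.26 in the imatinib samples, against 9.35, 9.15 and 9.10 in the mock samples. NUSAP1 groups overlapped in both of these sets and were apart in 4 of 8. The set changes were 0.19, 0.08, 0.11, 0.14, 0.01, 0.32, 0.12 and 0.15, and with each set fitted alone it was called in none. A second probe set of NUSAP1 had a change of 0.00 and was not called.

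All 6 measured genes of the central spindle and cytokinesis fell, against 27.1% of all genes, with a median change of -0.51. KIF14, a kinesin of the midbody, had levels in set B of 7.67, 7.89 and 7.93 in the imatinib samples, against 9.50, 9.38 and 9.39 in the mock samples. In set F they were 7.20, 6.81 and 7.15 in the imatinib samples, against 8.12, 7.87 and 7.52 in the mock samples. The groups of KIF14 were apart in all 8 sets, with changes of -1.24, -1.59, -1.55, -1.38, -1.28, -0.78, -1.16 and -1.09 and a combined change of -1.26 ± 0.059 (adjusted p = 4.2e-24), 2.39-fold lower with imatinib. KIF20A, which brings the passenger complex to the central spindle, had changes of -0.63, -0.85, -0.80, -0.70, -0.98, -0.48, -0.75 and -0.54. PRC1, the bundler of central spindle microtubules, fell by 0.50. ECT2, the exchange factor that activates RHOA at the cleavage furrow, fell by 0.52 with sets between -1.03 (set B) and -0.21. KIF23 and RACGAP1 together form the centralspindlin complex. KIF23 was the dimmest of the 58 genes, with mean levels of 4.64 in imatinib and 5.07 in mock samples, and fell by 0.42. RACGAP1 had the smallest change of the list, with set changes of -0.13, -0.61, -0.34, -0.29, -0.22, 0.08, -0.31 and -0.15 and a combined change of -0.24 ± 0.049.

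Of 7 condensin and chromosome structure genes, 6 fell (85.7%, against 27.1% of all genes), with a median change of -0.40. NCAPD2, a condensin I subunit, had changes of -0.42, -0.64, -0.72, -0.66, -0.69, -0.77, -0.75 and -0.46 and a combined change of -0.64 ± 0.037. TOP2A, the topoisomerase that untangles sister chromatids, had changes of -0.43, -0.69, -0.75, -0.50, -0.78, -0.47, -0.46 and -0.39 and a combined change of -0.56 ± 0.039. In set E the levels of TOP2A were 8.58, 8.39 and 8.5 in the imatinib samples, against 9.62, 9.09 and 9.09 in the mock samples. Both genes were lower without overlap in all 8 sets. The other condensin I subunits NCAPG and NCAPH fell by 0.45 and 0.40. The core ATPases, which condensin I shares with condensin II, moved less: SMC4 fell by 0.23 and SMC2 had a combined change of -0.08 ± 0.055 (adjusted p = 0.173). Dimmer probe sets of SMC4 had changes of -0.02 (not called, adjusted p = 0.758) and -0.16 (lower). The dimmer probe set of SMC2 had a change of -0.11 (lower, adjusted p = 0.027). The brightest probe set of SMC2 had changes of -0.14, -0.19, -0.44, 0.01, -0.24, 0.18, -0.02 and 0.16 in sets A to H, below 0 in 5 and above 0 in 3. In set C its levels were 7.68, 7.98 and 7.29 in the imatinib samples, against 7.84, 8.26 and 8.17 in the mock samples. In set F they were 8.03, 7.98 and 8.5 in the imatinib samples, against 7.96, 8.14 and 7.87 in the mock samples. NCAPD2 and SMC2 are the ends of this list by the same 8 sets, so their order within sets is no separate result.

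MKI67, the coat protein of mitotic chromosomes known as the Ki-67 proliferation marker, was read by 4 probe sets that did not move together. The brightest had changes of -0.40, -0.44, -0.35, -0.33, -0.37, -0.35, -0.34 and -0.22 in sets A to H and a combined change of -0.35 ± 0.025. The others had combined changes of -0.72 ± 0.042, -0.06 ± 0.03 (not called, adjusted p = 0.0669) and 0.09 ± 0.038 (higher, adjusted p = 0.0334). MKI67 was the only one of 23 genes with several probe sets that had calls in opposite directions.

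FOXM1, a transcription factor of G2 and M phase genes, moved little: its changes were -0.01, -0.09, -0.17, -0.11, -0.15, -0.16, -0.06 and -0.03 and the combined change was -0.10 ± 0.032 (adjusted p = 0.00686). In set C its levels were 7.23, 7.22 and 7.01 in the imatinib samples, against 7.33, 7.42 and 7.22 in the mock samples. The groups of FOXM1 overlapped in all 8 sets. CDCA3, which helps remove the CDK1 inhibitor WEE1, had changes of -0.54, -0.39, -0.24, -0.46, -0.72, -0.39, -0.50 and -0.32 and a combined change of -0.45 ± 0.038, and its groups were apart in all 8 sets.

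Across the 95 probe sets of the 58 genes, 82 fell, 4 rose and 9 were not called, against 25.8% lower and 39.3% higher among all 22215 probe sets. Of the 23 genes with more than 1 probe set, all probe sets fell in 16, and in the other 6 beside MKI67 some probe set was not called. BUB1, CDC25C, AURKA and SMC4 each had a dimmer probe set at or near 0 beside a brightest one that fell. Of the 5 probe sets of BUB1, those with changes of -0.48 and -0.38 fell. Those with changes of 0.00, 0.00 and -0.05 were not called. In the plot of probe sets of the same gene, KIF2C, TOP2A and CCNF had a dimmer probe set with a larger fall than the brightest.

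**Figure D4:**
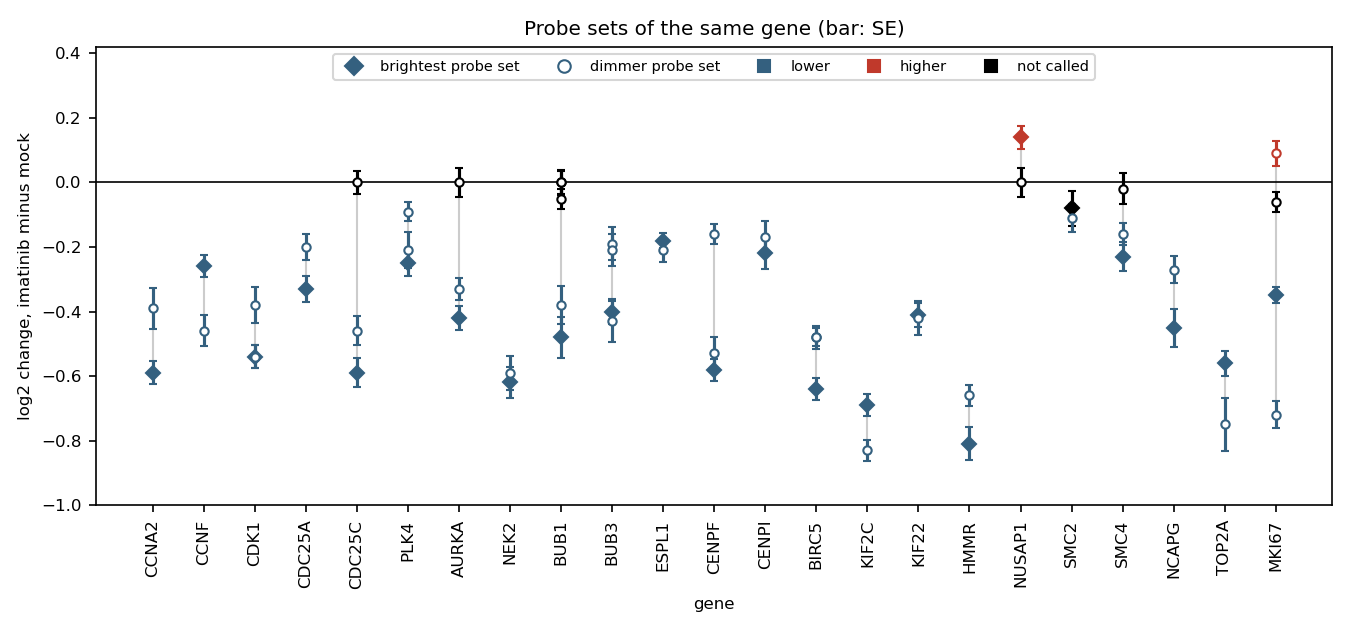
Combined log2 change (imatinib minus mock) with its SE (n = 24 samples per treatment) for each probe set of the 23 mitotic genes read by more than 1 probe set. Filled diamonds are the brightest probe set of a gene and open circles the dimmer ones, coloured by call, and MKI67 spans both signs, between -0.72 and 0.09.

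The number of genes called lower with each set fitted alone differed between sets. It was 38 of 58 in set A (15.9% of all genes), 49 in set B (21.3%), 51 in set C (21.4%) and 50 in set D (20.3%). It was 42 in set E (13.7%), 24 in set F (10.7%), 39 in set G (16.9%) and 32 in set H (12.7%). With 3 samples against 3, every imatinib sample lay below every mock sample for 39 of the 58 genes in set A (21% of all genes), 50 in set B (23.6%), 51 in set C (25.4%) and 50 in set D (22.9%). For sets E, F, G and H these numbers were 46 (18.9%), 31 (17.2%), 49 (23.5%) and 39 (17.6%). Genes called higher numbered 1 in set A (14.7% of all genes), 2 in set B (30.1%), 2 in set C (20.8%), 0 in set D (23.8%) and 0 in set E (8.03%). Sets F, G and H had 1 each (8.12%, 12.7% and 13.4%). Set F thus had the fewest mitotic genes called lower and set C the most. The share of all genes called lower was likewise highest in set C (21.4%) and lowest in set F (10.7%). Set C also held the most negative change of 25 of the 58 genes, and set F the least negative of 26. Shares of all genes for these 2 counts are not given, so they are not read as a trait of the mitotic genes. The median change of the 58 genes was -0.38, -0.57, -0.66, -0.52, -0.59, -0.33, -0.44 and -0.33 in sets A to H. The median of all genes was 0.01, 0.09, 0.05, 0.07, 0.06, -0.01, 0.03 and 0.02. The median replicate SD of these genes was 0.146 in set F and 0.064 in set B, the highest and lowest of the sets, and its part in the number of calls was not tested. Of the 54 genes that fell, 6 had a change above 0 in 1 set, namely FBXO5, NDC80, DLGAP5 and RACGAP1 in set F and CENPI and INCENP in set E. None of these 6 changes was called in its set.

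Promoter sequences are shown because most of these genes moved together and because promoters of G2 and M phase genes are known for a cell cycle element, the CHR, near the start site and for upstream CCAAT boxes, which bind NF-Y. Windows from 250 bases before to 50 bases after the annotated start were taken from RefSeq (GRCh38.p14), and 40 of the 60 symbols had a single start there. These 40 include NUF2 and ANLN, and 38 of them are measured genes. The motifs searched on both strands were TTTGAA, the core of the CHR, CCAAT, and TTTNNCGC, an E2F-type motif, where N is any base. The windows of 5 of the genes that fell by at least 2-fold and of NUSAP1, which rose, are given 5′ to 3′ in the direction of transcription. Capitals mark TTTGAA (or TTCAAA where it lies on the other strand) and CCAAT (or ATTGG), and no capitals mark TTTNNCGC. The windows are chr1:43358731-43359030 on the plus strand for CDC20, chr2:168890381-168890680 on the minus strand for SPC25 and chr1:200620702-200621001 on the minus strand for KIF14. They are chr16:23678639-23678938 on the plus strand for PLK1, chr5:69166900-69167199 on the plus strand for CCNB1 and chr15:41332631-41332930 on the plus strand for NUSAP1.
CDC20: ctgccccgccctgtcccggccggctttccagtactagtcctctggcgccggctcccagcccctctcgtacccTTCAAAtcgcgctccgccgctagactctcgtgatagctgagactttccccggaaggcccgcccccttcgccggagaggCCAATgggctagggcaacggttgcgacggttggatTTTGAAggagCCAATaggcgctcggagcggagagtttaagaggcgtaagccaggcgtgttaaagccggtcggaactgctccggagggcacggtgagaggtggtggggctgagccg
SPC25: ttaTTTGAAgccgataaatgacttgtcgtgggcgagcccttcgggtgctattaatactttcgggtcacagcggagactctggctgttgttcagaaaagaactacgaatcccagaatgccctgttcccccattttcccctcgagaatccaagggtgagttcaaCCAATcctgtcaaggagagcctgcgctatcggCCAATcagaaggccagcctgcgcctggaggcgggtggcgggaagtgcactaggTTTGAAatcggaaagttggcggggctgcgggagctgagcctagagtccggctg
KIF14: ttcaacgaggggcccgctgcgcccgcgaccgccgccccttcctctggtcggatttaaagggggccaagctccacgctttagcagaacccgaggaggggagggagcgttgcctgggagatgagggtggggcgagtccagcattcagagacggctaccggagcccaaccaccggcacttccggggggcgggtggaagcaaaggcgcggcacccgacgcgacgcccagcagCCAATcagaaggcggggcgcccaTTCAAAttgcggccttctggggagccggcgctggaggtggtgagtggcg
PLK1: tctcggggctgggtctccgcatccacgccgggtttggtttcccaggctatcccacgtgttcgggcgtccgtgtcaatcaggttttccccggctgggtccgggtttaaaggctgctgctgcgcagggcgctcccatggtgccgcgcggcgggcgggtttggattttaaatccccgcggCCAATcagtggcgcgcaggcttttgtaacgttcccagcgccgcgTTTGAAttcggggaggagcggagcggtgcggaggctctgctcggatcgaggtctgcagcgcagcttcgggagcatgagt
CCNB1: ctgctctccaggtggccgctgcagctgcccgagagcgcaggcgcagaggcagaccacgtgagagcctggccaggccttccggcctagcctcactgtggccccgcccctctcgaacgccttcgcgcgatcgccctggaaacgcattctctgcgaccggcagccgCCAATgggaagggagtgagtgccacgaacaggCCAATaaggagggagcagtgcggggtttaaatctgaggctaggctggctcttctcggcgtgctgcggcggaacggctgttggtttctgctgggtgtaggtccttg
NUSAP1: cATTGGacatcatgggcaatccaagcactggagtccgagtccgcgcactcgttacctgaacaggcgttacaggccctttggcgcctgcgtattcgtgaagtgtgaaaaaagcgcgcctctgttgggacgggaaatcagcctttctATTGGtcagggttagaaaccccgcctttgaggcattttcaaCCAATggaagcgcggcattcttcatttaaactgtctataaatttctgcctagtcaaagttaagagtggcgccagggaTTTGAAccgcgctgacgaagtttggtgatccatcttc

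Positions of matches are those of the first base relative to the start, negative before it. In PLK1 CCAAT was at -73 and TTTGAA at -29. CDC20 had CCAAT at -100 and -55 and TTTGAA at -65, with another at -178 on the other strand. SPC25 had TTTGAA at -3 and -247 and CCAAT at -88 and -56. KIF14 had CCAAT at -22 and TTTGAA at 2, on the other strand. CCNB1 had CCAAT at -87 and -55 and no TTTGAA in this window. NUSAP1, which rose, had CCAAT at 3 places and TTTGAA at 14.

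TTTGAA was found in 30 of the 40 windows (75%), against 10.8% of the 6810 windows of measured genes and 16% of all 22114 windows of genes with a single start. CCAAT was found in 31 of 40 (77.5%), against 38.4% and 36.2%. Both were found in 24 of 40 (60%), against 4.88% and 6.4%. TTTNNCGC was found in 7 of 40 (17.5%), against 10.1% and 6.66%. The 7 genes that fell by at least 2-fold all had a CCAAT match, 6 of them a TTTGAA match and 0 a TTTNNCGC match. The 38 TTTGAA matches had a median position of -28 relative to the start, and 28 lay within 50 bases of it. The 66 CCAAT matches had a median position of -74, and 39 lay between 100 and 30 bases before the start. In 2 of the windows, those of CDCA8 and MKI67, a TTTGAA match overlapped a CCAAT match. A match is a description of the letters and neither a shown binding site nor a cause of these changes.

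**Figure D5:**
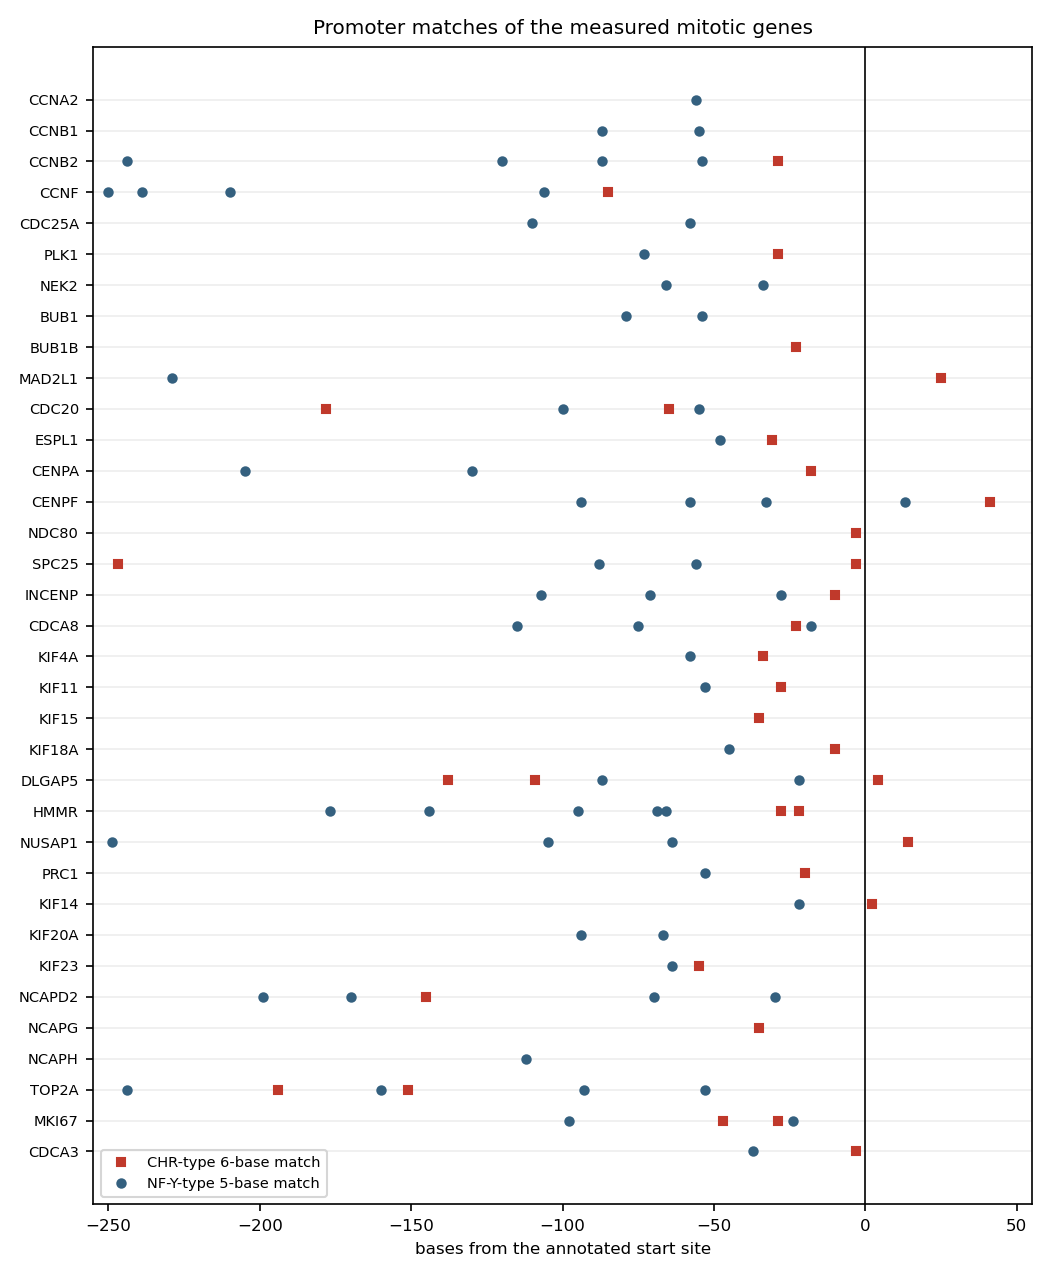
Position (bases from the annotated start, negative before it) of the first base of each match in the 35 measured mitotic genes with at least 1 match, of 38 with a single annotated start. Squares are matches of the 6-base CHR core and circles matches of the 5-base NF-Y box, on either strand. NUF2 and ANLN are not drawn, and with them 28 of the 38 CHR core matches of all 40 windows lie within 50 bases of the start.

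A wider list of 90 mitotic genes outside the 60 symbols moved less and in both directions. Both lists were chosen with earlier results of these data known, so the contrast between them is a description only. Of 72 measured, 37 fell (51.4%), 23 rose (31.9%) and 12 were not called, with a median change of -0.11, against 27.1% lower, 41.6% higher and a median of 0.05 among all genes. Windows of 41 of these genes held TTTGAA in 12 (29.3%), CCAAT in 22 (53.7%) and TTTNNCGC in 11 (26.8%). Genes of the wider list are given by their brightest probe set only, and their other probe sets are not described here.

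Of 11 anaphase-promoting complex genes, 4 fell and 4 rose (36.4% each), near the 27.1% and 41.6% of all genes. UBE2S, the enzyme that extends ubiquitin chains for this complex, had changes of -1.30, -1.23, -1.62, -1.50, -1.40, -1.60, -1.31 and -1.24 in sets A to H and a combined change of -1.40 ± 0.045. The subunits CDC27, CDC16 and ANAPC2 rose by 0.79, 0.43 and 0.42 on the log2 scale.

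Of 10 cohesin genes, which hold sister chromatids together, 4 fell and 6 rose, which with so few genes is not far from the 27.1% and 41.6% of all genes. STAG2, STAG1, PDS5B and NIPBL were among those that rose, by 0.36, 0.35, 0.32 and 0.27. Among 12 inhibitors of mitotic entry and phosphatases, 8 fell (66.7%) and 2 rose (16.7%), against 27.1% and 41.6% of all genes. The phosphatase 2A subunits PPP2R2A, PPP2R5A and PPP2CA had changes of -0.81 ± 0.039, -0.68 ± 0.042 and -0.56 ± 0.045, and ARPP19, an inhibitor of that phosphatase in mitosis, fell by 0.48.

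Of 27 further kinetochore and spindle genes, 17 fell (63%) and 5 rose (18.5%), against 27.1% and 41.6% of all genes. PBK, a mitotic kinase, fell by 1.31, TRIP13, which recycles the checkpoint protein MAD2, by 0.83, TACC3, a spindle stabiliser, by 0.65, and BORA, the cofactor with which AURKA activates PLK1, by 0.55. In condensin II, NCAPD3 and NCAPG2 fell by 0.40 and 0.32 and NCAPH2 had a change of 0.00. Of 9 MuvB, MYB and pocket protein regulators, which control the promoters of these genes, 2 fell (22.2%) and 6 rose (66.7%), against 27.1% and 41.6% of all genes. MYBL2, B-MYB, an activator of G2 and M phase genes, had changes of 0.46, 0.38, 0.38, 0.27, 0.30, 0.30, 0.41 and 0.48 in sets A to H and a combined change of 0.37 ± 0.029. TFDP2 and E2F4 rose by 0.31 and 0.26, and E2F5 fell by 0.68.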

How the data were processed

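Per the labels, K562 RNA of 24 imatinib and 24 mock samples was hybridised to Affymetrix arrays, from about 8 micrograms of total RNA each. The deposited values are on a log2 scale, as read from their range (2.41 to 14.9), with 22283 probe sets per sample. How the authors corrected background, summarised probes and normalized arrays is not stated in the sources used here. No further scaling was applied, and 68 control probe sets were left out. Probe sets were named from the platform annotation, with symbols updated through the RefSeq gene table (GRCh38.p14): 19065 had 1 symbol, 1043 several and 2107 none. A gene was read from its brightest probe set with 1 symbol. Tests were two-sided, with lmFit and eBayes of limma 3.58.1 under R 4.3.3 (checked on simulated data), combined with the set as a factor, for each set alone, and with set-by-treatment terms. Figures were drawn with matplotlib 3.10.9. Precision is limited by the number of arrays. Replicates were not duplicates, since even the most alike pair differed by up to 0.67 at some probe set. The members and gene lists were chosen with earlier results of these data known. Every member may be named. Those given in detail were, in each role list, the 2 largest changes and the smallest, and all members that rose, had opposite calls or differed between sets. Of the wider lists, up to 4 genes with the smallest p were named. Alternatives tried were array centring, quantile normalization within sets, a filter on dim probe sets, probe-set means, set means as pairs, a trended robust prior, the replicate block, and leaving out sets or replicates.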

Additional observations from a re-analysis of the deposited data

Results flagged for a closer look

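The change of 5 named genes differed in size between the 8 sets by the limma F test of the set-by-treatment terms. In all, 3 of the 58 mitotic genes and 6 of the 72 measured genes of the wider list passed, against 7.03% of all genes. These counts are near that share and are not read as a trait of the mitotic genes. Genes of the wider list that passed but fell outside the naming rule are not described. For PLK1 the adjusted p was 0.00472, with set changes between -1.48 in set C and -0.80 in set H, and it stayed past the threshold under the other scalings and the dim filter and without any set except C (0.105). For CDC25A it was 0.0434, with changes between -0.74 in set C and -0.15 in set H, and it was 0.627 without set C, 0.0629 without set B, 0.0831 without set H and 0.172 after quantile normalization. For NEK2 it was 0.0446, with changes between -0.92 in set D and -0.42 in set H. It was 0.0726 without set A, 0.13 without set C, 0.143 without set D, 0.0739 without set G and 0.0703 after centring. Outside the 60 symbols, PBK had an adjusted p of 0.0113 with changes between -1.96 in set C and -0.96 in set F, and 0.258 without set C. ANAPC2 had 0.0338 with changes between 0.05 in set F and 0.54 in set G, and 0.774 without set F, 0.0591 without set C and 0.0551 after centring. In each of these genes the sign was the same in all 8 sets.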

How the results depend on the processing

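The count of 54 mitotic genes that fell stayed at 51 to 55 under every alternative run. The combined change of each named gene, read from its brightest probe set, kept its direction and side of the threshold in 1131 recomputed values, which do not cover the mean over probe sets, sets fitted alone or the tests between sets. The count that fell was 51 without dim probe sets. That filter left 55 of the 58 genes and took out KIF23, CENPI and ECT2, which fell in the main comparison. With the mean over the probe sets of a gene the count was 55. Under centring, quantile normalization, the dim filter and the replicate block, 3 genes rose. Centring each array moved the median of all probe sets to 0.01, against 0.05 as deposited, and the counts over all genes to 3653 lower and 3644 higher, against 3237 and 4978, while the mitotic genes kept 54 lower and 3 higher. The count of mitotic genes whose change differed between sets, 3, was 0 without set C and 7 without set E, and the cause was not tested. Leaving out 1 replicate at a time gave 34 to 41 genes lower in set A, 48 to 50 in B, 39 to 52 in C, 45 to 49 in D, 34 to 49 in E, 17 to 26 in F, 33 to 42 in G and 26 to 32 in H. Same-numbered imatinib and mock samples of a set did not deviate together (24 pairs, correlations between -0.515 and 0.488, median 0.0161, 7 over 0.1), so the numbers were not taken to pair them. With the replicate block, the adjusted p of the between-set difference was 0.0644 for NEK2 and 0.104 for ANAPC2, 54 genes fell and 3 rose, and single sets gave 20 (set F) to 52 (set C) genes lower. For the counts without a set, without a replicate and with the replicate block, shares of all genes are not given.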
